A study of Homo sapiens with 2 samples.

Results

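The 41 genes described here encode the cyclins, cyclin-dependent kinases (CDKs), CDK inhibitors, CDC25 phosphatases and E2F factors that carry cells from G1 into S phase, the proteins that license and copy DNA, and the proteins that drive mitosis. They were chosen by name, and each of the 41 had 1 row among the 25277 rows of both deposited gene tables. By role, 17 belong to the G1/S transition, 11 to replication and 13 to mitosis. The study examined whether PERK, an ER-resident kinase of the unfolded protein response, shapes gene expression when cells rely on oxidative phosphorylation (OXPHOS). One sample of wild-type (WT) HEK293 cells was compared with 1 sample of PERK-KO HEK293 cells, both between passages 15 and 20 and both kept for 12 h in OXPHOS medium, a glucose-free DMEM with 10 mM galactose, 1 mM sodium pyruvate and 10% FBS. The PERK-KO cells were made with CRISPR/Cas9, single cells were seeded and clones were screened by immunoblotting, and which clone was sequenced is not given in the sources used here. Genotype, clone and culture therefore cannot be told apart, and no difference could be tested. HEK293 is a human embryonic kidney line transformed with adenovirus DNA, whose E1A protein binds the RB family and so relieves the usual brake on E2F factors.

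In a dividing cell, D cyclins with CDK4 or CDK6, then E cyclins with CDK2, phosphorylate RB proteins and free the E2F factors, which switch on genes for DNA synthesis. CDK inhibitors of the CIP/KIP and INK4 families oppose these kinases, and CDC25 phosphatases remove an inhibitory phosphate from them. ORC1, CDC6 and CDT1 load the MCM2 to MCM7 helicase onto replication origins, and geminin (GMNN) blocks CDT1 so that DNA is copied only once per cycle. Cyclin B with CDK1, the Polo and Aurora kinases and the anaphase-promoting complex then govern mitosis. PERK is known in this setting because its phosphorylation of eIF2α slows the synthesis of short-lived proteins such as cyclin D1, an effect on translation that RNA levels do not show.

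Genes of the G1/S and replication groups are known targets of E2F factors, and mitotic genes are known for CCAAT boxes with a nearby CHR element. RefSeq promoters (GRCh38.p14, from 250 bases before to 50 after each start) were found for 33 of the 41 genes, with none for CCND1, CCND2, CCNE2, CDK2, CDKN1C, MCM4, MCM5 and AURKA. The 120 bases before the start are shown for 6 genes, chosen so that an E2F word is seen in genes that were higher (CDC25A, CDT1) and lower (PCNA) in PERK-KO cells, a CHR in mitotic genes (CDC20, PLK1), and the gene with the lowest ratio (CDKN1A) beside them. They are written 5′ to 3′ along the gene, and capitals mark the words searched for, in either orientation.
CDC25A (chr3:48188418-48188537, minus strand): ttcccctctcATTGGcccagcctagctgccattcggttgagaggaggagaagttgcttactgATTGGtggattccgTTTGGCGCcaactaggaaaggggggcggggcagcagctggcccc
CDT1 (chr16:88803669-88803788, plus strand): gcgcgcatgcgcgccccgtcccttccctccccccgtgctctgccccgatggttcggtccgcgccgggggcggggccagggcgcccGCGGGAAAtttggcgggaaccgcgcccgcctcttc
PCNA (chr20:5126623-5126742, minus strand): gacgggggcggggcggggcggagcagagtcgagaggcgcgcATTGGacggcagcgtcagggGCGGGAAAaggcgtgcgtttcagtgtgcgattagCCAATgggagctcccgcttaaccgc
CDC20 (chr1:43358861-43358980, plus strand): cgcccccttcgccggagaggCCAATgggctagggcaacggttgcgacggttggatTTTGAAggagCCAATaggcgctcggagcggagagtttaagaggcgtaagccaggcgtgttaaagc
PLK1 (chr16:23678769-23678888, plus strand): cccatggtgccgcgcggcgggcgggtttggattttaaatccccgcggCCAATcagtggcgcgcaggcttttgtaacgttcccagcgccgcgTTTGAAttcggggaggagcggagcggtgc
CDKN1A (chr6:36678594-36678713, plus strand): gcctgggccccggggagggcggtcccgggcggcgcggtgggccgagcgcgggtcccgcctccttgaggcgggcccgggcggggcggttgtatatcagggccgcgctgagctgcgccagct

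In CDC25A an E2F word started 44 bases before the transcription start, with CCAAT boxes starting 110 and 58 bases before it. CDT1 held an E2F word at 35 bases and PCNA at 59 bases, the latter between CCAAT boxes at 79 and 25 bases. In CDC20 the CHR letters lay at 65 bases, between CCAAT boxes at 100 and 55 bases, and in PLK1 they lay at 29 bases with a CCAAT box at 73 bases. None of the words was found in the stretch of CDKN1A shown.

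The E2F set (TTTGGCGC or TTTGCCGC or TTTCGCGC or TTTCCCGC, on either strand) was present in 3.31% of all 35116 promoters and, counting a gene once, in 3.99% of 27305 genes. Among the 33 genes with a promoter it was present in 13, namely CDC25A, E2F1, E2F2, E2F3, MCM2, MCM3, MCM6, MCM7, CDC6, CDT1, GMNN, PCNA and CDK1. By role these were 8 of 9 replication genes, 4 of 12 G1/S genes and 1 of 12 mitotic genes. CCAAT was present in 26 of the 33 (78.8%), compared with 39.7% of all genes and 34.6% of all promoters, and it was found in 12 of 12 mitotic genes. The letters of the CHR, TTTGAA, were present in 18.2% of all genes and 15.2% of all promoters. Among the members they were found in 7 of 12 mitotic genes, 1 of 12 G1/S genes (E2F3) and 0 of 9 replication genes. An E2F word was present in 4 of the 10 genes with a promoter that were higher in PERK-KO cells beyond their limits, in 3 of 9 that were lower and in 6 of 14 whose limits overlapped. A gene was counted where any of its promoters matched. The 33 genes had 51 promoters and all 27305 genes had 35116, so the number of promoters per gene was not matched in these comparisons. A match is a stretch of letters and not a measured binding site.

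Levels are given as FPKM, the fragments counted for a gene in relation to its length and to all fragments mapped, with the lower and upper confidence limits that the authors deposited. Such limits reflect error within a library, including counting error, and how far separate cultures would differ is not known from them. EIF2AK3, which encodes PERK, had an FPKM of 5.61 in the WT sample (limits 5.11 to 6.12) and 3.89 in the PERK-KO sample (3.44 to 4.34). Its RNA was thus lower but present, and FPKM does not show whether a transcript still encodes a full protein. Of the HEK293 markers, VIM, KRT8, KRT18 and NEFL had FPKM values between 33.4 and 640.5 in both samples, and LHX1 had 4.65 and 2.88, whereas PAX2 was below 1 in both. VIM, KRT8, KRT18, NEFL and LHX1 were lower in PERK-KO cells with limits apart (KRT8 at 640.5 and 437, for example), and NEFM was higher, with 0.662 in WT and 5.21 in PERK-KO cells. The part of these differences in the results below was not tested. The 11 markers of blood, liver, endothelial, muscle and fat cells summed to 5.67 and 5.54, with none above 1.68, and CD3E and ALB were listed at 0 in both samples.

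All 41 genes passed an FPKM of 1 in each sample, and 38 lay above the median of the 14594 genes that reached 1 in either sample (the expressed genes), which was 9.41 in WT and 10.3 in PERK-KO cells. The lowest level was that of CDK6, at percentile 19.0 of these genes in WT cells, and the highest that of PCNA, at percentile 97.7. The limits were as narrow as the counting error of between 125 fragments (CDKN2D) and 12265 fragments (TOP2A) in WT cells. By this measure PCNA (FPKM 315, 1276 bases) had the limits of 1758 fragments and CDT1 (FPKM 90.3, 2664 bases) those of 4456. Some limits were thus wider than counting alone would give, and they are not an even measure across genes. The limits reached 1.81% to each side of the WT value for TOP2A and 17.9% for CDKN2D. The order of the 41 levels was close to the same in both samples (Spearman's rho 0.96 across genes, which are not replicates).

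**Figure D1:**
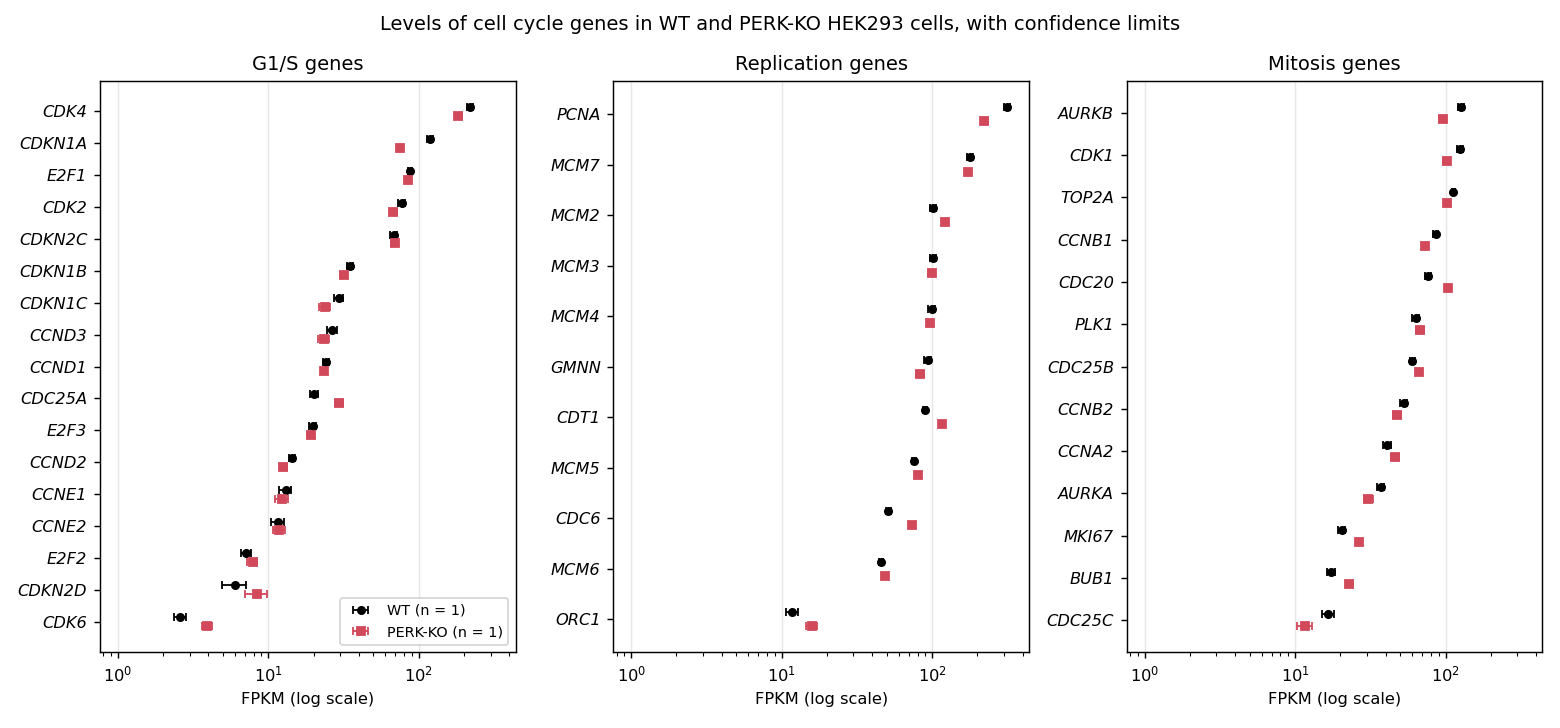
FPKM (log scale) of each gene in WT cells (black circles) and PERK-KO cells (red squares), 1 sample per genotype, ordered within each group by the WT level, with bars for the deposited confidence limits. Most pairs of points lie close together, while CDKN1A and PCNA sit visibly lower in PERK-KO cells and CDC25A, CDC6 and ORC1 higher.

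The ratio of the PERK-KO to the WT value was below 1 in 23 genes and above 1 in 18. A ratio past 1.5-fold was seen in 1 gene in each direction, CDKN1A (lower) and CDK6 (higher), whereas 7.54% of all 14594 expressed genes were past 1.5-fold lower and 10.1% past 1.5-fold higher. The confidence limits of the samples did not overlap in 13 genes that were lower (31.7%) and 10 that were higher in PERK-KO cells (24.4%). Of all expressed genes 18.7% were lower and 26.1% higher by that measure, and among the 7709 genes that reached an FPKM of 10 in either sample, as 38 of the 41 did, the shares were 28.9% and 29.7%. The shares of the cell cycle genes were thus near those of other genes at their level. The median size of the log2 ratio was 0.19 over the 41 genes and 0.27 over all expressed genes. Differences between the samples were therefore small, and each of the 3 groups contained genes of either direction. In 7 further genes (CCND3, CDKN1B, CDKN2D, MCM5, MCM6, CCNA2 and CCNB2) the limits overlapped but the interval of the ratio did not include 1. That is a looser measure, and the share of all expressed genes that met it is not given here. In RNA from whole cultures, fewer cells in a phase of the cycle and less RNA per cell cannot be told apart.

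**Figure D2:**
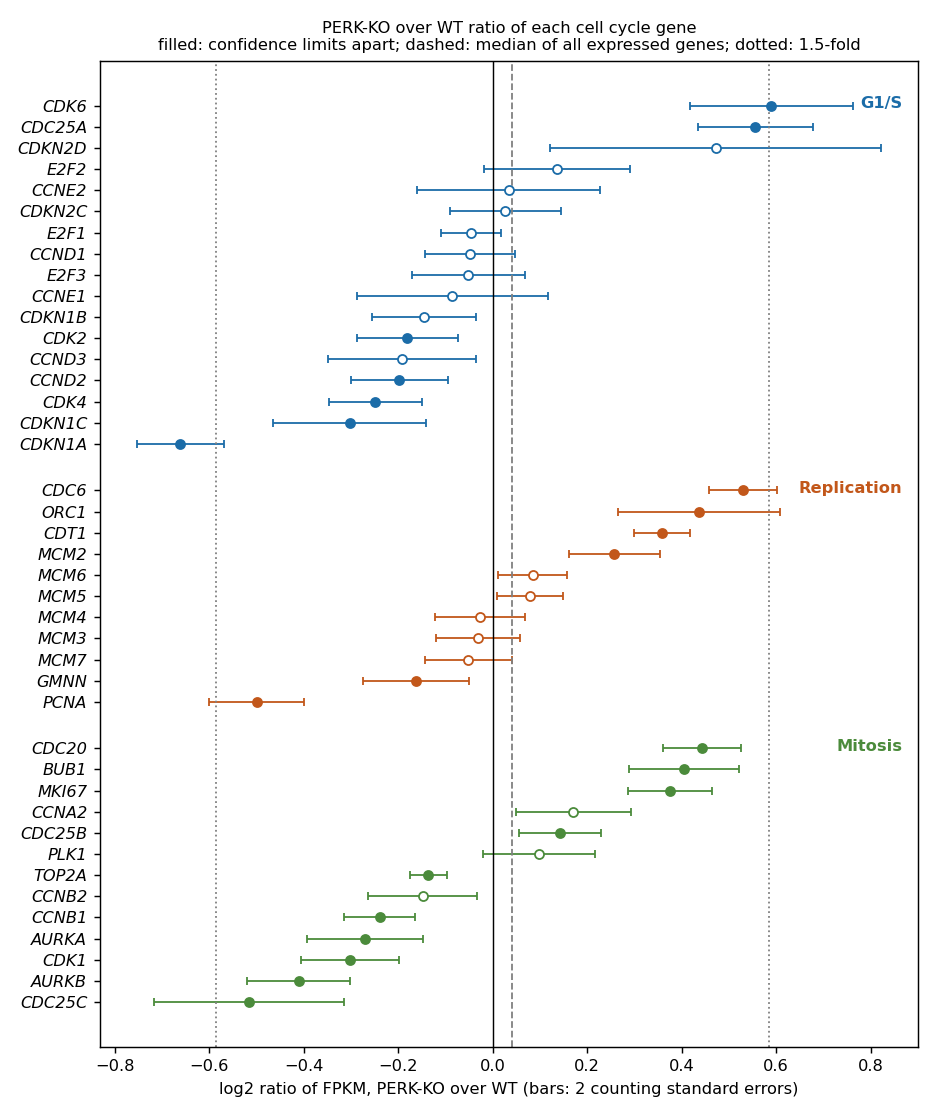
log2 ratio of FPKM in PERK-KO over WT cells for each gene, by group, with bars of 2 counting standard errors. Filled points mark genes whose confidence limits did not overlap (13 lower, 10 higher), the dashed line is the median of all expressed genes and the dotted lines are 1.5-fold. CDKN1A lies past the lower dotted line and CDK6 at the upper one.

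Among the CDK inhibitors, CDKN1A, which encodes p21, showed the largest difference. On chromosome 6 from 36644237 to 36655116 (GRCh37), it had an FPKM of 119 in the WT sample (limits 114 to 124) and 75.3 in the PERK-KO sample (71.6 to 79.0). It was 1.58-fold lower in PERK-KO cells, a log2 ratio of -0.66 (interval -0.75 to -0.57). The interval, here and below, spans 2 standard errors taken from the deposited limits on each side. CDKN1C, which encodes p57, had 29.3 in the WT sample (limits 27.2 to 31.5) and 23.8 in the PERK-KO sample (21.8 to 25.8), with limits that were apart. For CDKN1B, which encodes p27, the FPKM was 35.0 in the WT sample (limits 33.3 to 36.8) and 31.7 in the PERK-KO sample (29.9 to 33.5), and the limits overlapped. The summed FPKM of these CIP/KIP inhibitors was 183 (178 to 189) for WT and 131 (126 to 135) for PERK-KO cells, 1.40-fold lower. CDKN1A made up 64.9% of the sum in WT and 57.6% in PERK-KO cells.

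INK4 inhibitors bind CDK4 and CDK6, and those among the 41 genes, CDKN2C and CDKN2D, had values that were level or higher in PERK-KO cells. CDKN2C, which encodes p18, had an FPKM of 68.1 in the WT sample (limits 64.2 to 71.9) and 69.4 in the PERK-KO sample (65.3 to 73.4). CDKN2D, which encodes p19, had 6.04 in the WT sample (limits 4.96 to 7.12) and 8.38 in the PERK-KO sample (7.01 to 9.75). The limits overlapped in both genes, although those of CDKN2D were the widest of the 41 and its log2 ratio was 0.47 (interval 0.12 to 0.82). Summed, CDKN2C and CDKN2D had an FPKM of 74.1 in WT and 77.7 in PERK-KO cells, with overlapping intervals of 70.1 to 78.1 and 73.5 to 82.0. This sum leaves out the INK4 genes CDKN2A and CDKN2B, which are not among the 41 and were lower in PERK-KO cells. CDKN2A had 251 in the WT sample (limits 240 to 261) and 183 in the PERK-KO sample (174 to 191), with limits apart. Its log2 ratio of -0.46 became -0.17 with the median of genes of its length subtracted. CDKN2B had 10.8 and 9.26, with overlapping limits.

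The cyclins of G1 differed little. CCND1, the cyclin whose translation PERK is known to slow, had an FPKM of 24.2 in the WT sample (limits 23.2 to 25.3) and 23.4 in the PERK-KO sample (22.3 to 24.6), with overlapping limits and a log2 ratio of -0.05 (interval -0.14 to 0.05). CCND2 had 14.5 in the WT sample (limits 13.8 to 15.1) and 12.6 in the PERK-KO sample (11.9 to 13.3), and its limits were apart. CCND3 had 26.6 in the WT sample (limits 24.7 to 28.5) and 23.3 in the PERK-KO sample (21.4 to 25.2), with limits that overlapped. All D cyclins thus had lower values in PERK-KO cells, and their sum was 65.3 (63.0 to 67.6) in WT and 59.4 (57.1 to 61.7) in PERK-KO cells, with each keeping close to its share of the sum. The E cyclins CCNE1 (13.03 and 12.3) and CCNE2 (11.6 and 11.8, WT first) had overlapping limits, and their summed FPKM was 24.6 and 24.1.

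Of the G1 kinases, those with high levels were lower and the one with a low level was higher in PERK-KO cells. CDK4, the partner of D cyclins, had an FPKM of 218 in the WT sample (limits 208 to 229) and 184 in the PERK-KO sample (175 to 193), a log2 ratio of -0.25 (interval -0.35 to -0.15). CDK2, the partner of cyclins E and A, had 77.0 in the WT sample (limits 73.2 to 80.8) and 67.9 in the PERK-KO sample (64.2 to 71.7). CDK6, the close relative of CDK4, had 2.60 in the WT sample (limits 2.36 to 2.83) and 3.91 in the PERK-KO sample (3.60 to 4.22), 1.505-fold higher. The limits were apart in each of these kinases. CDK6 made up 1.18% of the summed CDK4 and CDK6 FPKM in WT and 2.08% in PERK-KO cells, so the sum followed CDK4 and was 221 (211 to 231) and 188 (179 to 197). The locus of CDK4 overlaps TSPAN31, which had an FPKM of 21.9 and 21.1.

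The CDC25 phosphatases diverged. CDC25A, which acts on CDK2 at the entry into S phase, had an FPKM of 20.1 in the WT sample (limits 18.9 to 21.4) and 29.6 in the PERK-KO sample (27.9 to 31.3), 1.47-fold higher, and lies on chromosome 3 from 48198668 to 48229801 (GRCh37). CDC25B, which acts in G2, had 60.1 in the WT sample (limits 57.7 to 62.6) and 66.4 in the PERK-KO sample (63.4 to 69.3), a slightly higher value with limits just apart. CDC25C, which acts on CDK1 at the entry into mitosis, had 16.6 in the WT sample (limits 15.2 to 18.1) and 11.6 in the PERK-KO sample (10.4 to 12.9), 1.43-fold lower. The limits were apart in all of them. CDC25A accounted for 20.8% of their summed FPKM in WT and 27.5% in PERK-KO cells, and CDC25C for 17.1% and 10.8%. The ratio of CDC25A to CDC25C, a pair picked after the values had been seen, was 1.21 (interval 1.09 to 1.35) in WT and 2.55 (2.25 to 2.88) in PERK-KO cells.

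The limits of the activating E2F factors overlapped, although those of E2F3 came apart on the lower side (log2 ratio -0.05, then -0.24) when the median of genes of similar length was subtracted. E2F1, the most abundant, had an FPKM of 88.0 in the WT sample (limits 85.3 to 90.6) and 85.2 in the PERK-KO sample (82.5 to 88.0), with a log2 ratio of -0.05 (interval -0.11 to 0.02). E2F2 had 7.16 and 7.87 and E2F3 19.8 and 19.1 in WT and PERK-KO cells. Their sum was 115 (112 to 118) and 112 (109 to 115).

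**Figure D3:**
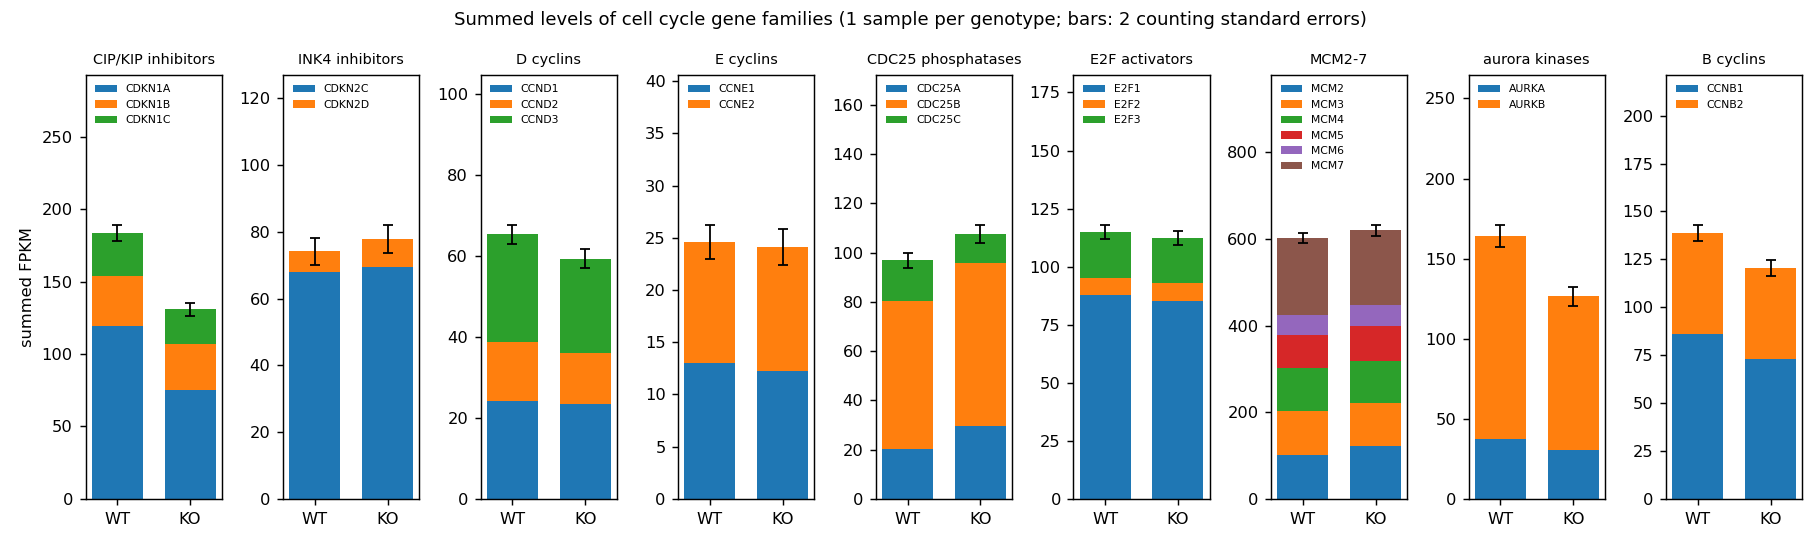
Summed FPKM of 9 gene families in WT cells and PERK-KO cells (labelled KO), stacked by gene, with bars of 2 counting standard errors on the sum and a separate axis from 0 for each family. The CIP/KIP and aurora sums are lower in PERK-KO cells, the MCM2 to MCM7 and E2F sums are nearly level, and the share of CDC25A grows while that of CDC25C shrinks.

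In the replication group, the helicase loaders ORC1, CDC6 and CDT1 were higher in PERK-KO cells, the helicase itself was nearly level, and the clamp PCNA was lower. CDC6, an ATPase that joins the origin recognition complex, had an FPKM of 51.2 in the WT sample (limits 49.3 to 53.1) and 73.9 in the PERK-KO sample (71.5 to 76.4), a log2 ratio of 0.53 (interval 0.46 to 0.60). ORC1, the largest subunit of that complex, had 11.7 in the WT sample (limits 10.7 to 12.7) and 15.9 in the PERK-KO sample (14.6 to 17.2), 1.35-fold higher. CDT1, which brings the helicase to the origin, had 90.3 in the WT sample (limits 87.6 to 93.0) and 116 in the PERK-KO sample (113 to 119), 1.28-fold higher. The limits of all these loaders were apart. Other subunits of the origin recognition complex, which are not members, were less uniform. ORC4 was higher with limits apart (12.3 in WT and 14.6 in PERK-KO cells). Limits overlapped in ORC2 (9.35 and 10.7), ORC3 (15.7 and 17.3), ORC5 (19.9 and 18.8) and ORC6 (35.7 and 33.9).

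GMNN, which encodes the CDT1 inhibitor geminin, differed in the other direction, with an FPKM of 93.5 in the WT sample (limits 88.6 to 98.3) and 83.5 in the PERK-KO sample (78.6 to 88.3) and limits just apart. The ratio of CDT1 to GMNN, again chosen with the values known, was 0.966 (interval 0.910 to 1.03) in WT and 1.39 (1.30 to 1.48) in PERK-KO cells, a 1.44-fold difference (1.31 to 1.57). The values also moved with transcript length, as genes of the length of CDT1 had a median log2 ratio of 0.02 and those of the length of GMNN a median of -0.25. With those medians subtracted, GMNN turned from lower to slightly higher (0.08), while CDT1 stayed higher (0.34).

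Of the helicase subunits, MCM2 alone had limits that were apart, with an FPKM of 102 in the WT sample (limits 97.1 to 107) and 122 in the PERK-KO sample (116 to 127), a log2 ratio of 0.26 (interval 0.16 to 0.35). MCM3 had 101 in the WT sample (limits 97.1 to 105) and 99.1 in the PERK-KO sample (94.5 to 104). MCM4 had 99.1 and 97.3, MCM5 had 76.2 and 80.4, MCM6 had 45.8 and 48.6, and MCM7 had 179 and 172 in WT and PERK-KO cells, and the log2 ratios of these lay between -0.05 and 0.08. The summed FPKM of MCM2 to MCM7 was 603 (591 to 615) in WT and 619.6 (607 to 632) in PERK-KO cells, and its interval for the log2 ratio was -0.00043 to 0.08. The proteins act as a hexamer with 1 copy of each, but the RNA levels per length were uneven in both samples, with MCM7 at 29.7% and 27.8% of the sum and MCM6 at 7.60% and 7.84%. The locus of MCM7 also holds 3 microRNA genes and AP4M1, and how fragments were assigned among them is not given in the sources used here. MIR25 was listed at 652 in WT and 93.0 in PERK-KO cells, MIR93 at 0 and 113, MIR106B at 0 in both, and AP4M1 at 12.2 and 11.6.

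PCNA, the sliding clamp of the replicative polymerases, lies on chromosome 20 from 5095599 to 5107268 (GRCh37). Its FPKM was 315 in the WT sample (limits 299.96 to 330.0) and 223 in the PERK-KO sample (211 to 234), a log2 ratio of -0.50 (interval -0.60 to -0.40). With the median of genes of its length subtracted, the log2 ratio was -0.27. PCNA-AS1, an antisense gene within the same locus, was listed at 462 and 463, and because counting by strand is not stated, reads of PCNA and its antisense partner cannot be told apart. PCNA also has pseudogenes named after it (PCNAP1, PCNAP3 and PCNAP4), as do 11 other members, and how reads matching several places were shared is not given in the sources used here.

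The mitotic genes split into those that were lower and those that were higher, with 6 (46.2%) and 4 (30.8%) of the 13 beyond their limits. The shares were 18.7% and 26.1% over all expressed genes, and 28.9% and 29.7% over those that reached an FPKM of 10. CDK1, its cyclin CCNB1 and both Aurora kinases were among the lower ones. CDK1, the kinase of mitotic entry, had an FPKM of 125 in the WT sample (limits 119 to 131) and 102 in the PERK-KO sample (96.4 to 107), a log2 ratio of -0.30 (interval -0.40 to -0.20). Its partner CCNB1 had 86.0 in the WT sample (limits 83.1 to 89.0) and 72.9 in the PERK-KO sample (69.99 to 75.8), while CCNB2 had 52.8 in the WT sample (limits 49.97 to 55.6) and 47.6 in the PERK-KO sample (44.8 to 50.4) with overlapping limits. The summed B cyclins were 139 (135 to 143) and 120.5 (116 to 125).

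AURKB, the catalytic subunit of the chromosomal passenger complex, had an FPKM of 127 in the WT sample (limits 121 to 133) and 95.7 in the PERK-KO sample (90.2 to 101), 1.33-fold lower. AURKA, which acts at spindle poles, had 37.1 in the WT sample (limits 35.0 to 39.2) and 30.8 in the PERK-KO sample (28.8 to 32.7), 1.21-fold lower. TOP2A, which untangles sister DNA, had 113 in the WT sample (limits 111 to 115) and 103 in the PERK-KO sample (101 to 105), a difference of only 1.10-fold that was outside its narrow limits. CDC25C, given above, completes the 6 lower genes.

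On the higher side stood CDC20, BUB1, MKI67 and CDC25B. CDC20, the activator of the anaphase-promoting complex, lies on chromosome 1 from 43824626 to 43828873 (GRCh37) and had an FPKM of 76.5 in the WT sample (limits 73.3 to 79.7) and 104 in the PERK-KO sample (99.96 to 108), a log2 ratio of 0.44 (interval 0.36 to 0.52). BUB1, a checkpoint kinase at the kinetochore, had 17.3 in the WT sample (limits 16.3 to 18.4) and 23.0 in the PERK-KO sample (21.7 to 24.2). MKI67, which coats mitotic chromosomes and encodes the proliferation antigen Ki-67, had 20.4 in the WT sample (limits 19.4 to 21.3) and 26.4 in the PERK-KO sample (25.4 to 27.5). MKI67 no longer had a higher value once the median of genes of its length was subtracted (-0.0023). The ratio of CDC20 to CCNB1, picked after the values had been seen, was 0.889 (0.842 to 0.938) in WT and 1.43 (1.35 to 1.51) in PERK-KO cells. PLK1, the Polo kinase, had 63.4 in the WT sample (limits 59.7 to 67.0) and 67.8 in the PERK-KO sample (63.8 to 71.8), and CCNA2, the cyclin of S phase and G2, had 40.997 in the WT sample (limits 38.5 to 43.5) and 46.2 in the PERK-KO sample (43.4 to 48.9), both with overlapping limits. PLK1 overlaps ERN2 (1.67 and 1.39), CCNA2 overlaps EXOSC9 (35.03 and 32.7) and, among the E cyclins, CCNE2 overlaps INTS8 (9.34 and 14.3).

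The values moved with transcript length, which bears on every ratio above. Over the 12439 expressed genes with a canonical transcript in GENCODE 44, the median log2 ratio was -0.25 in the shortest 20% of transcripts (112 to 1723 bases) and 0.28 in the longest 20% (5664 to 37027 bases). Across genes, Spearman's rho of length and log2 ratio was 0.45 over all of them and 0.49 over the 41, which share the same pair of libraries. Of the 13 genes that were lower, 3 lay in the shortest 20%, 8 in the next and 2 (CCND2 and TOP2A) in the longest. Of the 10 that were higher, 1 (CDC20) lay in the shortest 20%, 1 (CDT1) in the next and 5 in the middle one. A further 1 (CDC6) lay in the second longest and 2 (CDK6 and MKI67) in the longest. The 41 genes were themselves uneven over these classes, with 7, 15, 10, 5 and 4 from the shortest to the longest. The shares of all genes with limits apart in each class are not given here. The part of length in these results was not tested beyond the subtraction that follows.

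With the median of genes of similar length subtracted, 16 of the 23 genes kept limits that were apart in the same direction. These were CDC25A, ORC1, CDC6, CDT1, MCM2, BUB1 and CDC20 on the higher side, and CDKN1A, CDC25C, PCNA, CDK1, CCNB1, AURKA, TOP2A, CDK4 and CCND2 on the lower side. Limits came to overlap in CDK2, CDK6, CDKN1C, GMNN, CDC25B, AURKB and MKI67. In 5 genes whose limits had overlapped they came apart, with CCND1 (-0.16), E2F3 (-0.24) and MCM4 (-0.17) on the lower side and CDKN2C (0.30) and CDKN2D (0.66) on the higher side, so that 12 genes were then lower and 9 higher. The share of all expressed genes with limits apart under this subtraction is not given here. CDC20, with a transcript of 1649 bases, moved from 0.44 to 0.60, as genes of its length had a median of -0.16. CDKN1A went only from -0.66 to -0.61 and CDC25C from -0.52 to -0.45. MKI67, with 12716 bases, went from 0.38 to -0.0023, and CDK6, with 11663 bases, from 0.59 to 0.21. After subtraction 26 of the 41 genes (63.4%) lay within the middle 50% of all genes (-0.22 to 0.22), 7 lay below and 8 above.

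**Figure D4:**
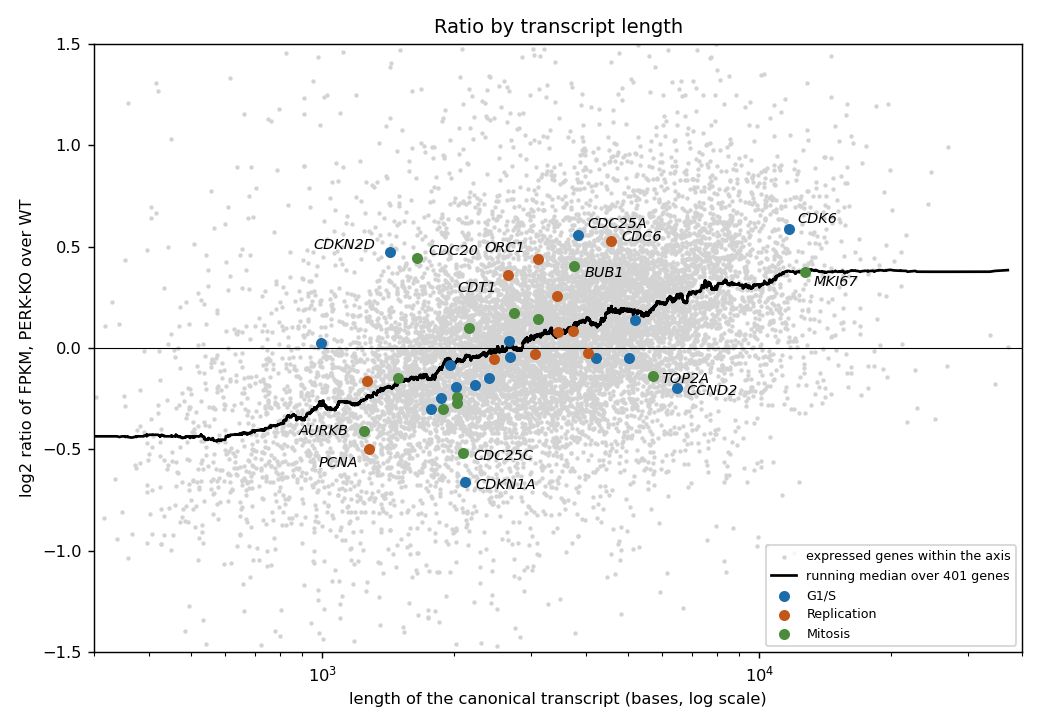
log2 ratio of FPKM in PERK-KO over WT cells against the length of the canonical transcript (log scale), with expressed genes in grey, the running median over neighbouring genes as a black line and the 41 genes coloured by group. The line climbs from short to long transcripts, MKI67 lies on it, CDC20 and CDKN2D lie well above it, and CDKN1A, CDC25C and CCND2 lie well below it.

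Other genes of the same pathways, taken from lists of known pathway members, also differed in both directions. Of 26 other G1/S regulators, 5 were lower (19.2%) and 10 higher (38.5%) with limits apart. The shares were 18.7% and 26.1% over all expressed genes, and 28.9% and 29.7% over those that reached an FPKM of 10. The median log2 ratio of these regulators was 0.09, compared with 0.04 over all expressed genes. LIN9, a subunit of the MuvB complex that acts on cell cycle promoters, was the one past 1.5-fold, with an FPKM of 8.16 in the WT sample (limits 7.39 to 8.92) and 12.4 in the PERK-KO sample (11.4 to 13.4). With the length median subtracted its log2 ratio went from 0.60 to 0.54, below 1.5-fold.

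Of 45 other replication genes, 12 were lower and 12 higher with limits apart (26.7% each). The shares were 18.7% and 26.1% over all expressed genes, and 28.9% and 29.7% over those that reached an FPKM of 10. The median log2 ratio of the 45 genes was 0.01. RPA3, the smallest subunit of the single-strand binding protein RPA, had 45.4 in the WT sample (limits 42.3 to 48.6) and 24.4 in the PERK-KO sample (22.2 to 26.7), 1.86-fold lower, and TK1, a thymidine kinase, had 149 in the WT sample (limits 145 to 154) and 97.2 in the PERK-KO sample (93.3 to 101), 1.54-fold lower. With the length median subtracted RPA3 went from -0.90 to -0.83 and stayed past 1.5-fold, whereas TK1 went from -0.62 to -0.43 and did not.

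Of 35 other mitotic genes, 5 were lower (14.3%) and 19 higher (54.3%) with limits apart. The shares were 18.7% and 26.1% over all expressed genes, and 28.9% and 29.7% over those that reached an FPKM of 10. The 13 mitotic members had 6 (46.2%) and 4 (30.8%), and this contrast was not tested. The median log2 ratio of the 35 other genes was 0.17, and it was 0.08 with the length median subtracted. Their median transcript was longer (4114 bases, compared with 2093 for the members). CENPF, a kinetochore protein, had 12.4 in the WT sample (limits 11.9 to 12.9) and 20.1 in the PERK-KO sample (19.4 to 20.8) and a transcript of 10290 bases. PTTG1, which encodes securin, had 266 in the WT sample (limits 256 to 276) and 166 in the PERK-KO sample (157 to 174) and a transcript of 715 bases. With the length median subtracted both fell short of 1.5-fold, CENPF going from 0.70 to 0.37 and PTTG1 from -0.68 to -0.28.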

How the data were processed

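Poly(A) RNA from 1 WT and 1 PERK-KO sample was sequenced. The authors mapped reads to GRCh37/hg19 with TopHat2 2.0.13 and deposited FPKM values per gene with confidence limits, made with Cufflinks 2.2.1 and Cuffdiff (versions per the labels). The annotation and read totals are not given in the sources used here, so depth is known only through the limits. FPKM are not counts, and with 1 sample per genotype no test was run. From these values the PERK-KO over WT ratio was computed, with no pseudocount, for genes that reached an FPKM of 1 in either sample. The limits were taken as 2 standard errors for intervals of ratios and sums, called counting standard errors in the figures. They cover error within a library only, and for some genes they are wider than counting alone would give. Each member was named. Of the other pathway genes, those past 1.5-fold with limits apart and the one furthest from a ratio of 1 in each list were named, unless stated. Members and lists were chosen with earlier results of these data known. Lengths of canonical transcripts (GENCODE 44, GRCh37 coordinates) were matched on gene symbol and locus for 85.2% of expressed genes, and a running median of the ratio over genes ordered by length was subtracted as an alternative. Calculations were tested on simulated data. Python 3.11.15, numpy 2.4.6, pandas 2.3.3 and matplotlib 3.10.9 were used.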

Additional observations from a re-analysis of the deposited data

How the results depend on the processing

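With 1 sample per genotype no replicate could be left out, and clone, culture and library cannot be told apart from genotype. No paired analysis was possible because each genotype has 1 sample. The 1 gene past 1.5-fold higher, CDK6, lies at the threshold, and that count was 0 when an FPKM of 5 in either sample was required, with rescaling to a median log2 ratio of 0 or by the 75th percentile, and with pseudocounts of 0.1 and 1. It was 2 (CDC20 and CDKN2D) with the running median over transcript length subtracted. At a difference of 25% the counts were 4 lower and 9 higher, and at a fold of 2 they were 0 and 0. The median log2 ratio of the mitotic members moved from -0.14 to -0.0023 with the length median subtracted. Under the same subtraction 2 genes with limits apart changed sign, GMNN to 0.084 and MKI67 to -0.0023. With either scaling, 22 of the 23 genes with limits apart kept them in the same direction, CDC25B being the exception, and the split of lower against higher genes became 16 against 9 with the median and 15 against 9 with the 75th percentile, compared with 13 against 10. Including genes above 0 in both samples, or summing rows of the same name, moved none of these counts or list medians. Shares over all expressed genes are given here for the main setting only, so the counts under other settings have none beside them.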

Other observations

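Checkpoint and p53 target genes, a further list of 16 genes that all reached an FPKM of 1, had 6 genes that were lower (37.5%) and 5 that were higher (31.2%) with limits apart. The shares were 18.7% and 26.1% over all expressed genes, and 28.9% and 29.7% over those that reached an FPKM of 10. The median log2 ratio of the 16 genes was -0.11. CDKN1A is itself a p53 target, so the others of this list were looked at beside it. BAX, a pro-apoptotic member of the BCL2 family, had an FPKM of 318 in the WT sample (limits 305 to 330.2) and 185 in the PERK-KO sample (175 to 194), 1.72-fold lower. SESN2, which encodes the stress-induced sestrin 2 and is also a known target of ATF4, had 18.2 in the WT sample (limits 17.2 to 19.3) and 30.5 in the PERK-KO sample (29.1 to 32.0), 1.68-fold higher. ATM, the kinase that senses DNA breaks, had 3.54 in the WT sample (limits 3.31 to 3.78) and 5.63 in the PERK-KO sample (5.31 to 5.94), 1.59-fold higher, with a transcript of 12915 bases. With the length median subtracted the log2 ratios of BAX, SESN2 and ATM were -0.41, 0.67 and 0.29.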
